A study of Rattus norvegicus with 9 samples.

Results

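The 34 genes described here are monocyte and macrophage genes, chosen by their known function in these cells and by no threshold on these values. The choice was made with earlier results of these data known, so it was not independent of them. They were taken from the deposited gene table by the gene symbol of each line, ignoring any suffix for a further locus. Of the 34 symbols, 33 had a line among the 22077 intact gene lines, and 31 of those passed the filter on low counts. Plac8 had no line under that symbol and was not analysed here. Cd163 and Ms4a7 had too few reads to be tested.

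The libraries were made from total RNA of peripheral blood mononuclear cells (PBMC), the cell fraction of blood that holds lymphocytes and monocytes. All rats were wild-type Sprague-Dawley animals, and each group had 3 libraries. The groups were normoxia, labelled day 0, and Sugen-hypoxia (SuHx) at day 28 and at day 56. Sugen-hypoxia pairs the VEGF receptor inhibitor SU5416, also called Sugen, with low oxygen, and is used in rats as a model of pulmonary hypertension. The comparisons asked how far blood mononuclear cell transcripts differed from normoxia at each day. The ages of the rats and the length and level of the hypoxia are not stated in the labels used here. With normoxia sampled at day 0 alone, time and treatment cannot be told apart. Whether replicates are separate animals is not stated in the labels, so the spread behind each p-value is that between libraries and may be technical.

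Monocytes are made in the bone marrow, circulate in blood and can enter tissues, where they can become macrophages. Their development depends on the transcription factor PU.1, encoded by Spi1, on C/EBP factors and on the growth factor receptor encoded by Csf1r. They recognise microbes and antibody-coated particles through surface receptors, many of which signal through adaptors with an ITAM, a short tyrosine motif that is phosphorylated on activation. They kill what they take up with the NADPH oxidase and with lysosomal enzymes. In pulmonary hypertension, monocytes and macrophages gather around remodelled lung vessels.

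PU.1 and C/EBP factors are known regulators of many of these genes, so the promoters were searched for their motifs. The RefSeq table of promoters, on build GRCr8, held 22 of the 34 genes. Each promoter covers 250 bases before the start site and 50 after it. The letters GAGGAAGT, a PU.1 site, were found on either strand in 2 of the 22 genes (9.09%), Csf2ra and Ctss, against 2.62% of all 27457 genes of the table. The shorter ETS core GGAAGT, which lies inside the PU.1 letters, was found in 7 of the 22 (31.8%), against 24.1% of all genes. The C/EBP letters TTGCNNAA were found in Ctsd, Itgam and Lyz2 (13.6%), against 11.4% of all genes. The AP-1 letters TGANTCA were found in Cd68 and Cybb (9.09%), against 8.04% of all genes. Apart from the PU.1 letters, with only 2 genes, these shares lay close to those of all genes. A match is a description of these letters and not a shown binding site. Printed 5′ to 3′ on the coding strand are promoters from genes described below: a growth factor receptor with the PU.1 letters, the lysosomal membrane protein gene Cd68, the most abundant of the genes, and the only one of the 31 tested genes whose CPM level was lower in every day 28 library than in every normoxia library. Capitals mark ETS core and C/EBP matches on either strand. All 4 are on the minus strand of GRCr8, a different build from the rn6 of the counts, at chr14:118068-118367 (Csf2ra), chr10:54882392-54882691 (Cd68), chr7:54797962-54798261 (Lyz2) and chr1:206968772-206969071 (Ctsd).
Csf2ra: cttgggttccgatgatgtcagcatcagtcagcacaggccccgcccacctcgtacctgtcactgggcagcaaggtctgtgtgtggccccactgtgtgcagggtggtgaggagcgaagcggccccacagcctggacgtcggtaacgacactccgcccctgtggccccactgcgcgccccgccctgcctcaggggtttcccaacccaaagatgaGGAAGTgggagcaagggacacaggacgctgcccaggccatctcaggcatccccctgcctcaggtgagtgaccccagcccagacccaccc
Cd68: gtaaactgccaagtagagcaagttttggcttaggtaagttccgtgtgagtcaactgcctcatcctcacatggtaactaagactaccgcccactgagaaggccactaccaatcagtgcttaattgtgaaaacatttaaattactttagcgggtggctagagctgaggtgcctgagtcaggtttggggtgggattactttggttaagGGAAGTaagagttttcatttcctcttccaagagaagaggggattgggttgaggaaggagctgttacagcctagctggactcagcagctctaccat
Lyz2: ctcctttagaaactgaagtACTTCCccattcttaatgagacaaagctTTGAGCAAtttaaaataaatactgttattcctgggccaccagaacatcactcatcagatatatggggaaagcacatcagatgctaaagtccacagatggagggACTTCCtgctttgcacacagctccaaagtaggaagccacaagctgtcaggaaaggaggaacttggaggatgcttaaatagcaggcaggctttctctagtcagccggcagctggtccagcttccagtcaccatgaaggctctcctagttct
Ctsd: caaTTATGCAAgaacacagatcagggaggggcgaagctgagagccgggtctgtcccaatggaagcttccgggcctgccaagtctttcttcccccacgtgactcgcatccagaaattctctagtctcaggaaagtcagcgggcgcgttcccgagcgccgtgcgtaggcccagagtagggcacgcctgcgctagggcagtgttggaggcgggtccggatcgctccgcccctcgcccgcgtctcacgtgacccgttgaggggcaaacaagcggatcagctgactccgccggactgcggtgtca

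The libraries held 22148400 to 39947430 exon reads each. They differed in their content of globin transcripts: the 5 most abundant genes, all from the globin loci, took 1.42%, 4.83% and 29.0% of exon reads in the day 28 libraries 1 to 3, against 43.0% to 56.3% in normoxia and 40.5% to 44.4% at day 56. Introns held 24.9%, 21.4% and 14.2% of the gene reads of the day 28 libraries, against 14.6%, 6.60% and 5.37% in normoxia. Normoxia replicate 1 stood apart from the other normoxia libraries in its intron share, and day 28 replicate 3 from the other day 28 libraries in its globin share. Day 28 replicate 2 had the highest level of 29 of the 31 tested genes. Results are therefore also given with these libraries left out. Levels within a gene are given below as CPM, the exon reads scaled to a common library total after TMM correction, in the order of replicates 1, 2 and 3. Levels between genes are given as the authors' RPKM, which is per exon length.

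Lyz2, which encodes lysozyme, was by far the most abundant of the 33 genes per exon length, with 4327 ± 3194 RPKM at day 28, 969 ± 278 RPKM at day 56 and 1265 ± 375 RPKM in normoxia (SD, n = 3 each). RPKM has no TMM correction for the globin reads, so groups are compared by CPM below. Over all 9 libraries Lyz2 averaged 2187 RPKM. Next came Ctsb with 265, Tyrobp with 263 and Fcer1g with 242 RPKM. In normoxia the neighbours Ctsb, Tyrobp and Fcer1g (267 ± 122, 174 ± 40.6 and 165 ± 29.3 RPKM) did not differ beyond their spread. The order differed between groups: at day 28 Tyrobp (428 ± 237 RPKM) and Fcer1g (379.6 ± 165 RPKM) had higher means than Ctsb (243 ± 42.0 RPKM). Over all 9 libraries Csf1r averaged 100.3, Fn1 88.0, Ctsd 82.1, Cyba 78.4 and Cybb 65.8 RPKM. In normoxia Ctsd stood at 93.3 ± 24.7 RPKM, above the mean of Csf1r (46.2 ± 30.8 RPKM) and of Fn1 (32.3 ± 26.0 RPKM). At the low end Cd14 averaged 8.70, Vcan 5.53 and Msr1 0.275 RPKM.

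A few of the 34 genes had very low counts, while others that macrophages share with monocytes, such as Csf1r, Aif1 (42.7 RPKM) and Cd68 (40.9 RPKM), were well covered. Cd163, the haemoglobin scavenger receptor, had 0 reads in the 3 day 28 libraries together, 3 reads at day 56 and 1 read in normoxia. The 0 reads allow up to 0.0277 CPM at day 28 by a limit of 3 counts over the group, which covers counting error only. Ms4a7, a membrane protein of macrophages, had 16 reads at day 28, 4 at day 56 and 7 in normoxia. The complement genes C1qa, C1qb and C1qc, which many tissue macrophages make and which are not among the 34, had 49, 40 and 44 reads over all 9 libraries and were named after their values were seen. Msr1, a scavenger receptor for modified lipoproteins, had 58, 310 and 35 exon reads in the day 28 libraries, 17, 19 and 21 at day 56 and 26, 3 and 17 in normoxia. For Msr1, 78.2% of the reads assigned to the gene fell in its introns.

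At day 28 the genes stood mostly above normoxia, but none of the 31 passed edgeR's quasi-likelihood test at an adjusted p of 0.05 across all genes. With the genes grouped by role, every tested gene of each group had a higher mean, except among the lysosomal genes, where 3 of 6 did. Of the 31 genes, 28 had a higher mean at day 28 than in normoxia and 3 a lower one. Among all 12447 genes tested, 6168 were higher and 6279 lower. The median log2 fold change of the 31 was 1.07, with a range of -1.18 to 2.71, against -0.01 over all genes. With 0 of the 31 called, the background was also low, since 0.0884% of all genes were called higher and 0.0402% lower. At an unadjusted p under 0.05 there were 19 of the 31 (61.3%), against 28.8% of all genes. DESeq2, run as an alternative, called 14 of the 31 higher and 1 lower (45.2% and 3.23%), against 6.06% and 6.97% of all its genes. A p that misses the threshold does not show that the groups had equal levels. In bulk RNA, more monocytes, more RNA per monocyte and RNA of these genes from other cell types cannot be told apart. This holds for every comparison below.

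**Figure D1:**
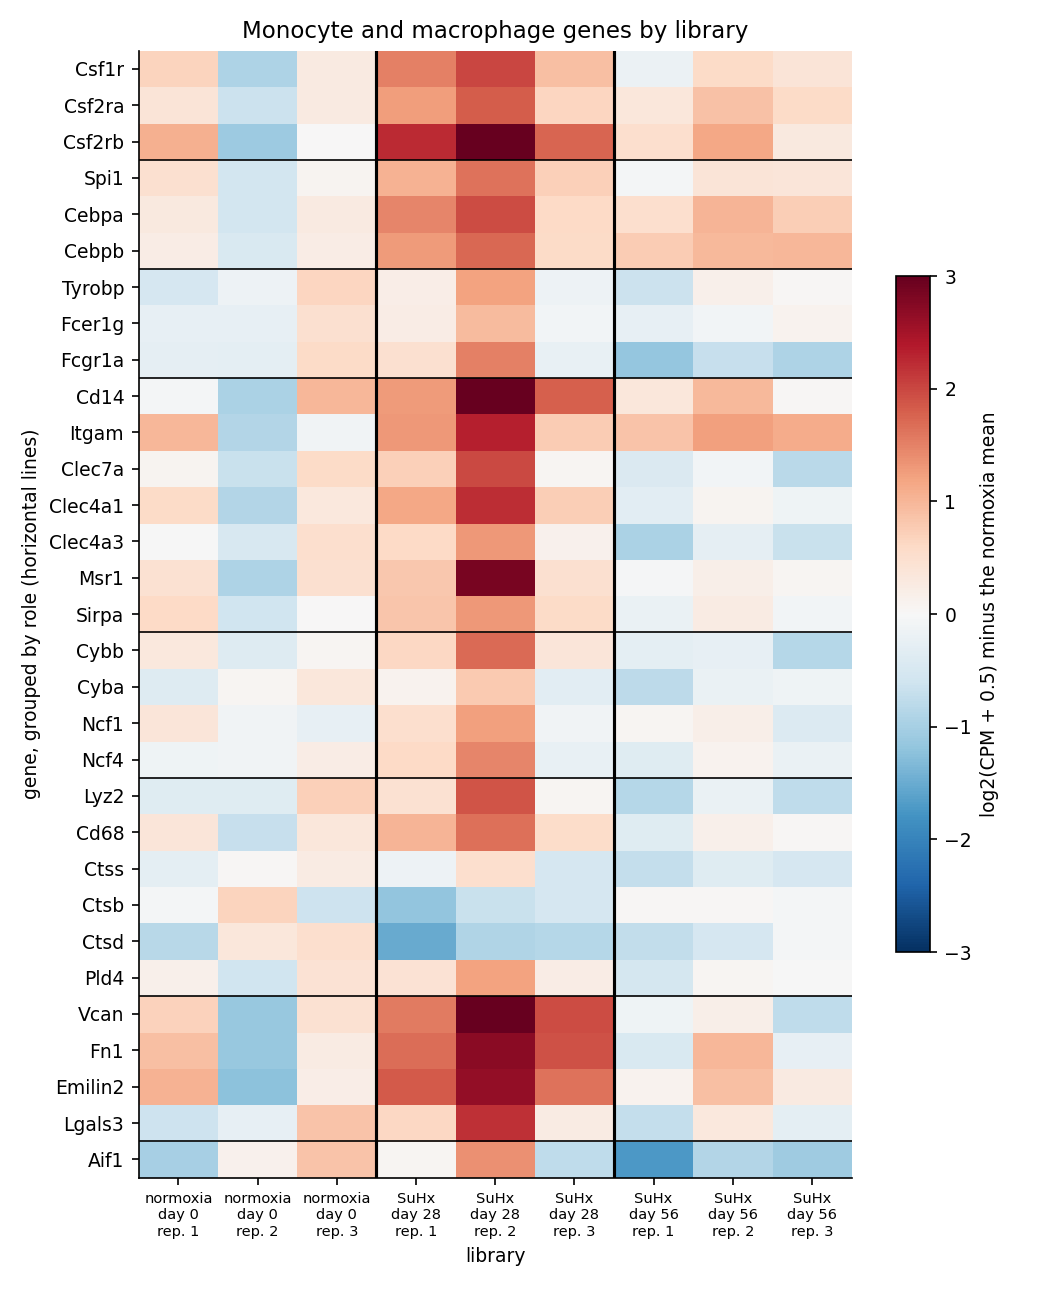
Level of each tested gene in each of the 9 libraries, as log2(CPM + 0.5) minus the mean of the 3 normoxia libraries, with genes grouped by role and the colour scale capped. Day 28 replicate 2 has the highest level of 29 of the 31 genes, the exceptions being Ctsb and Ctsd.

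In 14 of the 31 genes (45.2%) every day 28 library lay above every normoxia library, against 11.4% of all genes tested. In 1 gene, Ctsd, every day 28 library lay below, against 11.8% of all genes. The 14 were Csf1r, Csf2ra, Csf2rb, Spi1, Cebpa, Cebpb, Cd14, Clec4a1, Msr1, Cybb, Cd68, Vcan, Fn1 and Emilin2. These counts depend on the scaling. On the authors' RPKM scale, which has no TMM correction for the globin reads, the day 28 libraries lay above normoxia in 26 of the 31 genes (83.9%), against 49.9% of all genes, and below in 0, against 2.06% of all genes. The RPKM comparison was chosen after the data were seen. The differences in red cell and intron reads moved with these counts: erythroid markers (9 of 10 found) summed to 83.6, 319 and 1973 CPM in the day 28 libraries, against 3308, 6778 and 8549.8 CPM in normoxia. Their part in the result was not tested. Fits with the globin share or the intron share as a covariate gave the 31 genes medians of 0.59 and 0.64. Every day 28 library had a lower globin share than every normoxia library, so in the first fit globin share and group cannot be told apart.

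The growth factor receptors were higher at day 28 for 3 of 3 genes, each without overlap between the groups by CPM. Of all genes, 11.4% lay higher without overlap by CPM and 49.9% by RPKM. Csf1r, the receptor for the macrophage growth factor CSF1 (ENSRNOG00000018414, rn6 chromosome 18, 56414487 to 56458300), had 713, 1008 and 468 CPM in the day 28 libraries, against 399, 132 and 301 CPM in normoxia. All 3 day 28 libraries lay above the highest normoxia library, replicate 1. For Csf1r this gave a log2 fold change of 1.39 with an SE of 0.42 and an edgeR adjusted p of 0.102. Csf2rb encodes the signalling chain shared by the GM-CSF, IL-3 and IL-5 receptors (ENSRNOG00000000187, rn6 chromosome 7, 119554353 to 119568776). It had 53.1, 143 and 37.4 CPM at day 28, against 23.4, 4.82 and 10.9 CPM in normoxia. Here replicate 2 stood far above the other day 28 libraries, and the groups did not overlap. Csf2rb thus had a log2 fold change of 2.58 (SE 0.63), with an edgeR adjusted p of 0.0818. Csf2ra, the GM-CSF-binding chain, had 49.0, 72.9 and 31.7 CPM at day 28, against 26.7, 12.7 and 24.3 CPM in normoxia, again with no overlap.

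The lineage transcription factors were likewise higher for 3 of 3 genes without overlap by CPM, against 11.4% of all genes. Their median log2 fold change was 1.24. Spi1, which encodes PU.1, had 77.6, 117 and 61.9 CPM at day 28, against 52.5, 25.3 and 39.6 CPM in normoxia. The lowest day 28 library, replicate 3, was above the highest normoxia library, replicate 1. Cebpb, a C/EBP factor induced in activated monocytes (ENSRNOG00000057347, rn6 chromosome 3, 164424514 to 164425910), had 58.2, 79.9 and 35.8 CPM at day 28, against 28.0, 17.3 and 28.1 CPM in normoxia. The log2 fold change of Cebpb was 1.24 (SE 0.29, edgeR adjusted p = 0.0796), the smallest adjusted p of the 31 genes in this comparison. Cebpa, needed for the myeloid lineage, averaged 56.2 ± 24.7 CPM at day 28 and 21.2 ± 6.47 CPM in normoxia (SD, n = 3 each).

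The ITAM adaptors and the Fc receptor showed smaller differences, and none of the 3 genes separated the groups on the CPM scale. By RPKM all 3 did, against 49.9% of all genes higher. Tyrobp encodes DAP12, an adaptor with an ITAM that many myeloid receptors use (ENSRNOG00000020845, rn6 chromosome 1, 88875374 to 88879303). It had 191, 379.6 and 148 CPM at day 28, against 117, 149 and 259.9 CPM in normoxia. The day 28 and normoxia libraries overlapped, and only day 28 replicate 2 exceeded normoxia replicate 3. For Tyrobp this gave a log2 fold change of 0.45 with an SE of 0.41 and an edgeR adjusted p of 0.459. Fcer1g, the adaptor chain of activating Fc receptors, averaged 223 ± 86.3 CPM at day 28 and 170.0 ± 53.3 CPM in normoxia. Fcgr1a, the high-affinity IgG receptor, averaged 64.6 ± 39.4 CPM at day 28 and 39.2 ± 14.4 CPM in normoxia (SD, n = 3 each).

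Among the recognition, scavenger and inhibitory receptors, 7 of 7 tested genes had a higher mean at day 28. By CPM 3 of the 7 did not overlap with normoxia (42.9%), against 11.4% of all genes. Cd14, the co-receptor for bacterial lipopolysaccharide (ENSRNOG00000017819, rn6 chromosome 18, 29560364 to 29562153), had 13.2, 65.6 and 19.3 CPM at day 28, against 4.96, 2.43 and 10.8 CPM in normoxia. Replicate 2 was several times as high as the other day 28 libraries, while replicate 1 was only a little above normoxia replicate 3. Cd14 thus had a log2 fold change of 2.45 (SE 0.69), with an edgeR adjusted p of 0.0934. Msr1 (ENSRNOG00000012779, rn6 chromosome 16, 56813790 to 56900052) had 1.54, 7.87 and 1.12 CPM at day 28, against 1.08, 0.110 and 1.10 CPM in normoxia. The day 28 mean rests largely on replicate 2, and replicate 3 was barely above normoxia replicate 3. The log2 fold change of Msr1 was 2.24 (SE 0.86, edgeR adjusted p = 0.139). Itgam, the alpha chain of complement receptor 3 (CD11b), had 128, 263 and 87.2 CPM at day 28, against 103, 27.7 and 47.7 CPM in normoxia. The groups overlapped, since normoxia replicate 1 lay above day 28 replicate 3. Clec4a3, a C-type lectin of the Dcir family, had 43.4, 71.0 and 31.3 CPM at day 28, against 28.3, 20.5 and 40.7 CPM in normoxia, with overlap. Clec4a1, a lectin of the same family, had a log2 fold change of 1.40, the lectin Clec7a (dectin-1, a receptor for beta-glucans) one of 1.07, and Sirpa, the inhibitory receptor for CD47, one of 0.86.

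The NADPH oxidase subunits were higher at day 28 by less, with a median log2 fold change of 0.70 over 4 genes. Cybb encodes the catalytic subunit gp91phox (NOX2). It had 387, 807 and 319.5 CPM at day 28, against 313, 192 and 261 CPM in normoxia. Each day 28 library was above each normoxia library, although day 28 replicate 3 and normoxia replicate 1 were close. Cyba, its membrane partner p22phox (ENSRNOG00000013014, rn6 chromosome 19, 55249615 to 55257876), had 77.7, 125 and 57.9 CPM at day 28, against 55.3, 75.6 and 91.3 CPM in normoxia. These groups overlapped, and the log2 fold change was 0.23 (SE 0.31, edgeR adjusted p = 0.621). The cytosolic subunits Ncf1 and Ncf4 had log2 fold changes of 0.63 and 0.77. Ncf1 is uncertain, since only 85.4% of its exon reads mapped to a single place.

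The 6 lysosomal genes differed in direction, with 3 higher and 3 lower at day 28. Lyz2 (ENSRNOG00000005825, rn6 chromosome 7, 60335968 to 60341264) had 3236, 8606 and 2434 CPM at day 28, against 1832, 1816 and 3848 CPM in normoxia. The groups overlapped, with normoxia replicate 3 above day 28 replicates 1 and 3. For Lyz2 this gave a log2 fold change of 0.93 with an SE of 0.51 and an edgeR adjusted p of 0.244, and 85.1% of its exon reads mapped to a single place, so reads shared with a near-identical copy are possible. Cd68, a glycoprotein of late endosomes, had 82.0, 127 and 59.2 CPM at day 28, against 51.9, 24.6 and 50.7 CPM in normoxia, with no overlap. Ctsd, an aspartic protease of lysosomes that many cell types make (ENSRNOG00000020206, rn6 chromosome 1, 215541541 to 215553451), had 103, 156 and 163 CPM at day 28, against 164, 369.9 and 419 CPM in normoxia. The highest day 28 library was just below the lowest normoxia library, replicate 1, and by RPKM the groups overlapped. Ctsd thus had a log2 fold change of -1.18 (SE 0.35), with an edgeR adjusted p of 0.0991. Ctsb, a cysteine protease, averaged 450.2 ± 106 CPM at day 28 and 809.6 ± 359 CPM in normoxia, with overlap. For the cysteine protease Ctss, which trims the invariant chain of MHC class II, the log2 fold change was -0.0028. Pld4, a lysosomal nuclease, had one of 0.63. Ctsb, Ctsd and other genes given per library outside the stated naming rule were chosen after their values were seen.

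Matrix and secreted proteins had the highest median of the groups with at least 3 genes, 1.89 over 4 genes. By CPM 3 of the 4 lay higher without overlap, against 11.4% of all genes. Vcan encodes versican, a proteoglycan that circulating classical monocytes express (ENSRNOG00000029212, rn6 chromosome 2, 18490101 to 18565842). It had 60.8, 314 and 80.1 CPM at day 28, against 33.2, 8.91 and 27.8 CPM in normoxia. Replicate 2 was far above the rest, and the lowest day 28 library was still above the highest normoxia library. The log2 fold change of Vcan was 2.71 (SE 0.68, edgeR adjusted p = 0.0835), the largest difference of the 31 genes. Fn1, fibronectin (ENSRNOG00000014288, rn6 chromosome 9, 78900102 to 78969078), had 1099, 2243 and 1293 CPM at day 28, against 645, 155 and 405 CPM in normoxia, with no overlap. For Fn1 this gave a log2 fold change of 1.94 with an SE of 0.57 and an edgeR adjusted p of 0.0950. Emilin2, an extracellular glycoprotein, had 134, 235 and 115 CPM at day 28, against 77.5, 15.4 and 42.3 CPM in normoxia, and the groups did not overlap. Lgals3, the lectin galectin-3, had a log2 fold change of 1.16. Aif1 (IBA1), an actin-binding protein, had 50.6, 126 and 28.5 CPM at day 28, against 24.2, 53.0 and 88.4 CPM in normoxia, with wide overlap.

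**Figure D2:**
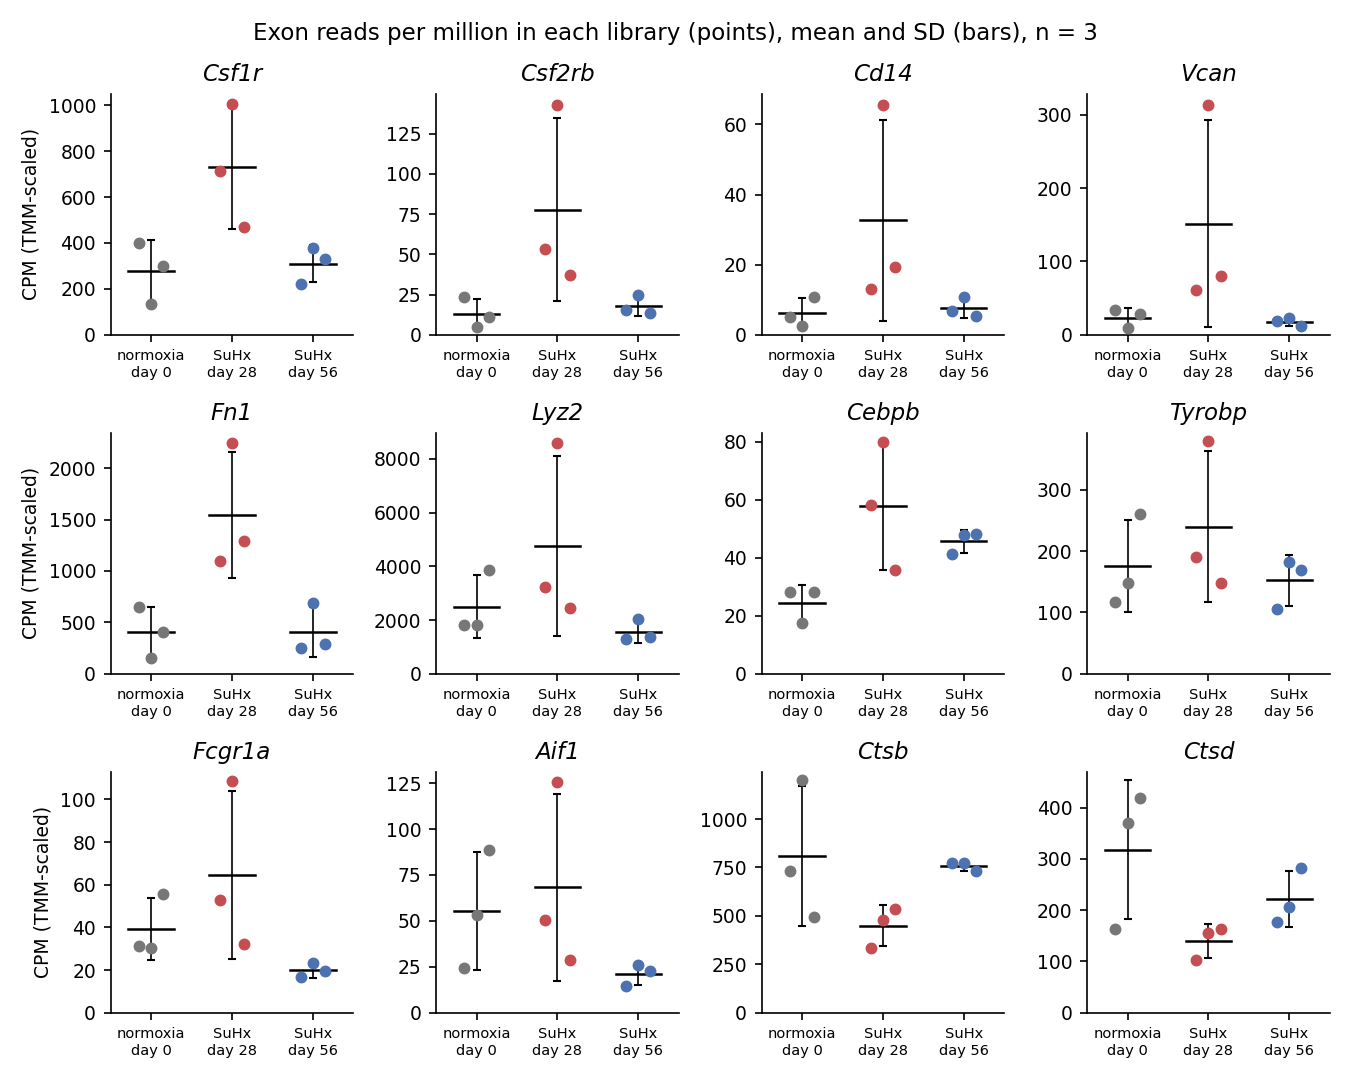
CPM of 12 of the genes in each library (points) with the mean and SD of each group (n = 3), on linear axes from 0, ordered as normoxia, day 28 and day 56. Day 28 replicate 2 is the highest point in every panel other than those of Ctsb and Ctsd, and Ctsb and Ctsd have their lowest means at day 28.

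The number of these genes called at day 28 depended on which library was left out. Without normoxia replicate 1, 15 of the 31 genes (48.4%) passed, 14 higher and Ctsd lower, while 23.0% of all genes passed as higher and 22.2% as lower. With 45.2% of all genes called in that fit, the share of these genes was close to the background in total, though not in its direction. The 14 were Csf1r, Csf2ra, Csf2rb, Spi1, Cebpa, Cebpb, Itgam, Clec4a1, Sirpa, Cybb, Cd68, Vcan, Fn1 and Emilin2. Without day 28 replicate 3, Csf2ra, Csf2rb, Cebpa and Cebpb passed, all higher, against 1.29% of all genes higher and 1.78% lower. Leaving out any other single library gave 0 calls. Without day 28 replicate 2 the median log2 fold change of the 31 genes was 0.47, against 1.07 with all libraries. With normoxia replicate 1 and day 28 replicate 3 both left out, 19 of the 31 passed, 18 of them higher, while 24.2% of all genes passed as higher and 22.3% as lower, so a high share of all genes passed in this fit as well.

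**Figure D3:**
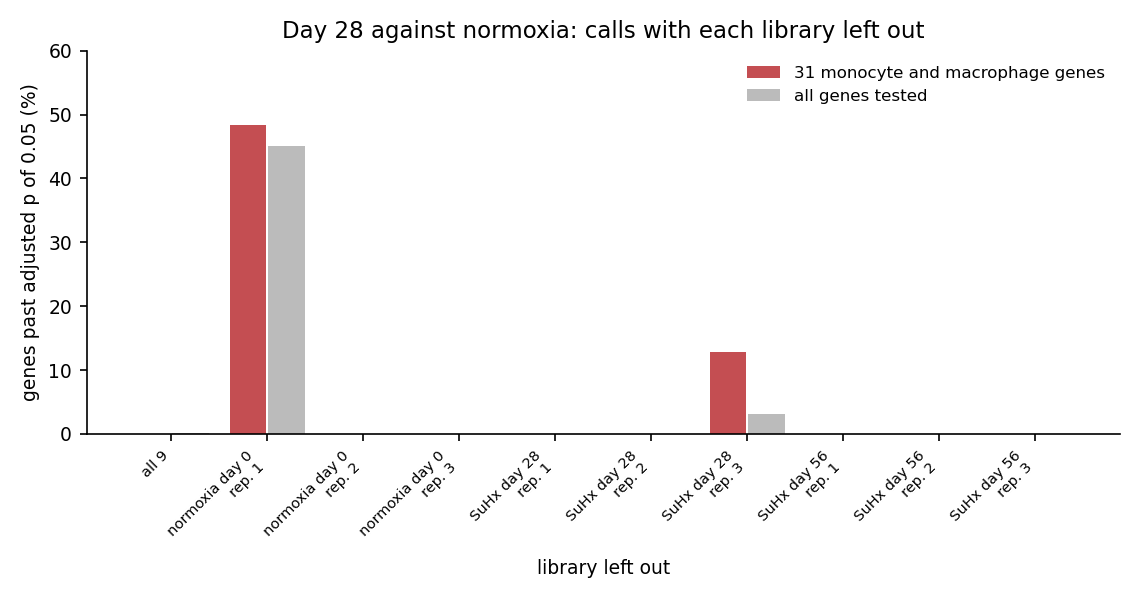
Percent of the 31 genes and of all genes tested that passed an adjusted p of 0.05 between day 28 and normoxia, with all 9 libraries and with each library left out in turn. The share of the 31 is 48.4% without normoxia replicate 1 and 12.9% without day 28 replicate 3, against 45.2% and 3.07% of all genes. It is 0 in the other fits.

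Other cell types of the sample are set beside these values. The 33 genes summed to 7885, 17202 and 6740.0 CPM in the day 28 libraries, against 5435, 4873 and 7371 CPM in normoxia. Neutrophil markers (12 of 12 found) summed to 109, 295 and 118 CPM at day 28, against 103, 50.1 and 102 CPM in normoxia, with 1 of the 12 at 0 in each library, so the same day 28 library was highest for both lists. All 9 neutrophil markers that were tested had a higher mean at day 28 than in normoxia, against 49.6% of all genes. Their median log2 fold change was 0.98, and none passed edgeR's test. The neutrophil granule genes Mpo and Elane, 2 of the 12, had 28 and 2 reads over all 9 libraries. Those low counts do not speak for the other markers of the list. T cell markers (10 of 10 found) summed to 1091, 818 and 1408 CPM at day 28, against 1251, 1537 and 1402 CPM in normoxia. B cell markers (7 of 8 found) summed to 1052, 869 and 546 CPM at day 28, against 993, 1697 and 1157 CPM in normoxia. Day 28 replicate 2 was thus the library with the lowest T cell sum and the highest sum of the monocyte and macrophage genes. NK and cytotoxic markers (8 of 8) summed to 339, 819.9 and 505 CPM at day 28, against 501, 657 and 981 CPM in normoxia. Platelet markers (10 of 10) summed to 601, 951 and 912 CPM at day 28, against 774, 3225 and 3475 CPM in normoxia. The dendritic markers (8 of 8) had a sum of 233, 250.3 and 144 CPM at day 28, against 183, 138 and 171 CPM in normoxia, and the endothelial and stromal markers (7 of 8) one of 10.4, 5.94 and 8.28 CPM at day 28, against 5.37, 4.49 and 7.40 CPM in normoxia. The part of other cell types in the result was not tested.

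**Figure D4:**
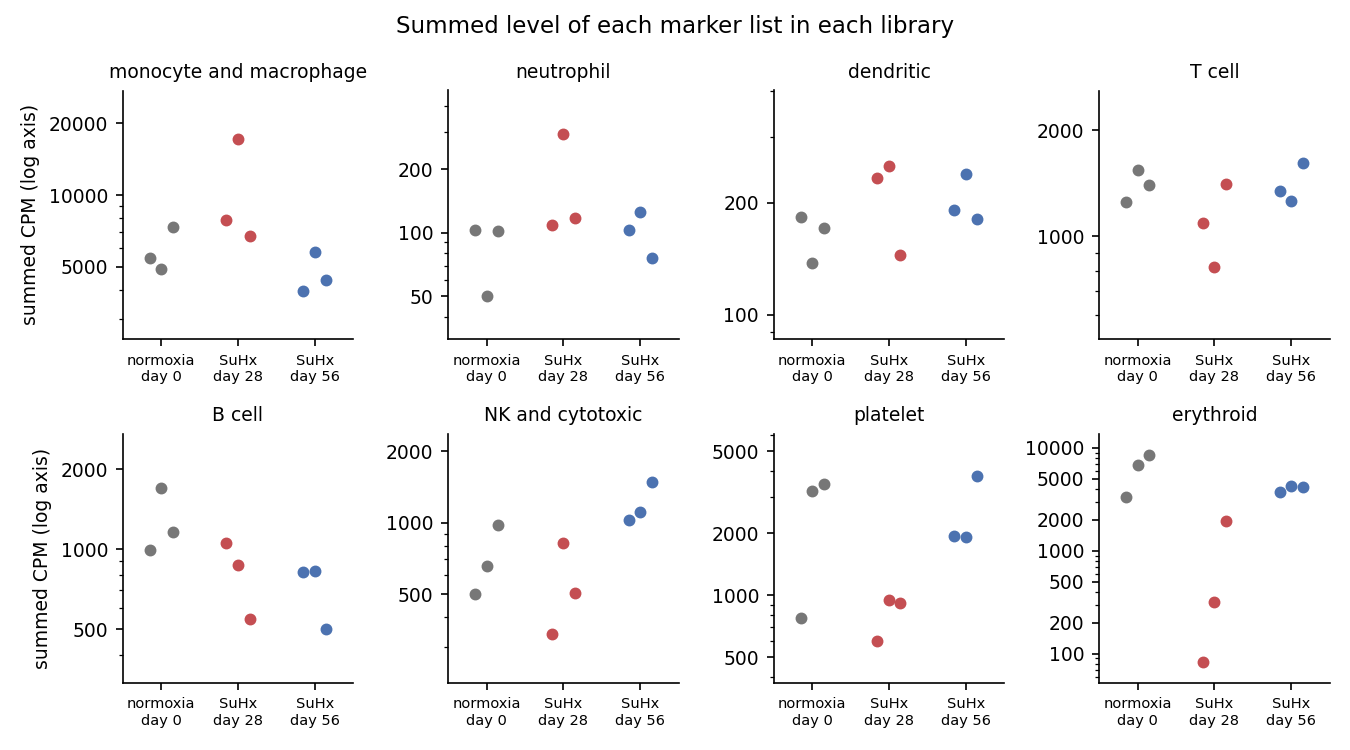
Summed CPM of each list of cell type markers in each library, on log axes, ordered as normoxia, day 28 and day 56. The erythroid sums are lowest in day 28 replicates 1 and 2, and the highest monocyte and macrophage sum, 17202 CPM, is in day 28 replicate 2. Of that sum, 8606 CPM is Lyz2 alone.

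At day 56 the genes lay on both sides of their normoxia levels. None of the 31 passed edgeR's test, while 3.42% of all genes were called higher and 3.70% lower. At an unadjusted p under 0.05 there were 3 of the 31 (9.68%), against 30.9% of all genes, and DESeq2 called 1, Cebpb, against 8.42% of all genes higher and 10.0% lower. Of the 31, 10 had a higher mean at day 56 than in normoxia and 21 a lower one, with a median log2 fold change of -0.13 against -0.04 over all genes. That split depended on single libraries, with 16 of the 31 higher and a median of 0.02 without normoxia replicate 3, 15 higher without normoxia replicate 1 and 6 higher without normoxia replicate 2. Without day 56 replicate 1 or 2, 14 and 7 were higher. In 2 genes, Cebpa and Cebpb, every day 56 library lay above every normoxia library (6.45%, against 15.6% of all genes). In 2 others, Fcgr1a and Ctss, every day 56 library lay below (6.45%, against 14.9% of all genes). Both comparisons with normoxia share the same 3 normoxia libraries. The 33 genes summed to 3959, 5737 and 4404 CPM in the day 56 libraries, against 5435, 4873 and 7371 CPM in normoxia. Of the other cell types, the NK and cytotoxic markers summed to 1028, 1106 and 1478 CPM at day 56, against 501, 657 and 981 CPM in normoxia, and the neutrophil markers to 103, 125 and 76.2 CPM at day 56, against 103, 50.1 and 102 CPM in normoxia. Of the 9 tested neutrophil markers, 7 had a higher mean at day 56 and 2 a lower one. Among them Mmp9 passed as higher (edgeR adjusted p = 0.0138), against 3.42% of all genes. The roles of these other cell types are set beside the values only. Their part in the day 56 values was not tested.

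Cebpb had the smallest adjusted p of the 31 genes at day 56. Its level was 41.2, 47.7 and 48.3 CPM in the day 56 libraries, against 28.0, 17.3 and 28.1 CPM in normoxia. The 3 day 56 libraries were close together and all above normoxia. Cebpb thus had a log2 fold change of 0.90 (SE 0.29), with an edgeR adjusted p of 0.0808. Cebpa averaged 35.1 ± 6.42 CPM at day 56 and 21.2 ± 6.47 CPM in normoxia (SD, n = 3 each). Itgam had 94.3, 121 and 112 CPM at day 56, against 103, 27.7 and 47.7 CPM in normoxia, where replicate 1 lay within the day 56 range. The log2 fold change of Itgam was 0.88 (SE 0.49, edgeR adjusted p = 0.250).

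On the other side, Aif1 (ENSRNOG00000000853, rn6 chromosome 20, 5161332 to 5166448) had the largest difference at day 56, with 14.4, 26.1 and 22.8 CPM in the day 56 libraries, against 24.2, 53.0 and 88.4 CPM in normoxia. Normoxia replicate 1 lay within the day 56 range, and the normoxia libraries were spread widely. For Aif1 this gave a log2 fold change of -1.39 with an SE of 0.58 and an edgeR adjusted p of 0.139. Fcgr1a (ENSRNOG00000021199, rn6 chromosome 2, 198430529 to 198458041) had 16.6, 23.3 and 19.6 CPM at day 56, against 31.4, 30.4 and 55.9 CPM in normoxia. All 3 day 56 libraries lay below the lowest normoxia library. Fcgr1a thus had a log2 fold change of -0.98 (SE 0.41), with an edgeR adjusted p of 0.144. Lyz2 had 1288, 2042 and 1378 CPM at day 56, against 1832, 1816 and 3848 CPM in normoxia, and Ctss averaged 54.7 ± 6.62 CPM at day 56 and 79.6 ± 14.9 CPM in normoxia. Csf1r had 223, 377 and 331 CPM at day 56, all within the normoxia range, and Fn1 251, 684 and 288 CPM, also overlapping normoxia. Without normoxia replicate 1, 4 of the 31 passed at day 56, with Cebpb and Itgam higher and Aif1 and Ctsd lower, while 21.8% of all genes passed as higher and 21.2% as lower. No other single library left out gave a call, although without day 28 replicate 3, for example, 2.64% of all genes passed as higher and 2.40% as lower. With normoxia replicate 1 and day 28 replicate 3 both left out, 7 of the 31 passed at day 56, with Cebpa, Cebpb and Itgam higher and Aif1, Ctsd, Ctss and Fcgr1a lower, while 23.1% of all genes passed as higher and 22.7% as lower.

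Between the SuHx days the genes were mostly lower at day 56 than at day 28. None of the 31 passed edgeR's test, against 0.426% of all genes called higher and 0.121% lower. At an unadjusted p under 0.05 there were 21 of the 31 (67.7%), against 18.5% of all genes. DESeq2 called 15 of the 31 lower and 0 higher, against 4.48% of all genes higher and 3.65% lower. In all, 29 of the 31 had a lower mean at day 56 and 2 a higher one, with a median log2 fold change of -1.21 against -0.01 over all genes. Without day 28 replicate 2 the median was -0.71, with 3 of the 31 higher. In 18 genes (58.1%) every day 56 library lay below every day 28 library, against 17.4% of all genes. In 2 genes (6.45%), Ctsb and Ctsd, every day 56 library lay above, against 17.8% of all genes. By RPKM, 25 of the 31 lay below (80.6%), against 58.4% of all genes, and 0 above, against 4.11% of all genes. This comparison uses the same day 28 libraries as the comparison with normoxia, so its values are not a second sign of the day 28 levels.

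Vcan showed the largest difference between the days. Its level was 18.5, 22.8 and 11.7 CPM in the day 56 libraries, against 60.8, 314 and 80.1 CPM at day 28. The log2 fold change of Vcan was -3.10 (SE 0.69, edgeR adjusted p = 0.0800). The day 56 values were all below the lowest day 28 library. Cd14 had 6.71, 10.7 and 5.26 CPM at day 56, against 13.2, 65.6 and 19.3 CPM at day 28, with no overlap. For Cd14 this gave a log2 fold change of -2.12 with an SE of 0.67 and an edgeR adjusted p of 0.140. Csf2rb had 15.6, 25.0 and 13.5 CPM at day 56, against 53.1, 143 and 37.4 CPM at day 28, again with no overlap. Csf2rb thus had a log2 fold change of -2.11 (SE 0.62), with an edgeR adjusted p of 0.122. Msr1 had 0.634, 0.798 and 0.704 CPM at day 56, against 1.54, 7.87 and 1.12 CPM at day 28, and the log2 fold change was -2.30 (SE 0.85, edgeR adjusted p = 0.188).

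The Fc receptor gene and the C-type lectin genes also stood lower at day 56 than at day 28. Fcgr1a had 16.6, 23.3 and 19.6 CPM at day 56, against 53.1, 109 and 32.3 CPM at day 28. The log2 fold change of Fcgr1a was -1.70 (SE 0.42, edgeR adjusted p = 0.0947). Clec4a3 had 14.6, 23.9 and 17.8 CPM at day 56, against 43.4, 71.0 and 31.3 CPM at day 28. Neither gene's groups overlapped. Cybb averaged 184 ± 40.0 CPM at day 56 and 505 ± 264 CPM at day 28, Csf1r 310.2 ± 79.0 CPM at day 56 and 729.6 ± 270.3 CPM at day 28 (SD, n = 3 each). The transcription factors Cebpa and Cebpb differed less between the days, with log2 fold changes of -0.68 and -0.34. Ctsb had 772, 774 and 729.6 CPM at day 56, against 332, 481 and 538 CPM at day 28. For Ctsb this gave a log2 fold change of 0.75 with an SE of 0.32 and an edgeR adjusted p of 0.251. Without normoxia replicate 1, Cybb, Sirpa and Vcan passed as lower at day 56 and none as higher, against 3.32% of all genes lower and 4.57% higher. Without day 28 replicate 3, Fcgr1a passed as lower, against 0.615% of all genes lower and 1.46% higher. With both libraries left out, 15 of the 31 passed as lower and none as higher, against 5.15% of all genes lower and 5.42% higher. Red cell RNA differed here too, with erythroid sums of 3750.5, 4316 and 4148 CPM at day 56, against 83.6, 319 and 1973 CPM at day 28, and with the globin share as a covariate the median log2 fold change of the 31 genes was -0.71. Platelet markers also differed, with sums of 1938, 1925 and 3793 CPM at day 56, against 601, 951 and 912 CPM at day 28. By CPM 9 of the 10 lay higher in every day 56 library, against 17.8% of all genes. The NK and cytotoxic markers summed to 1028, 1106 and 1478 CPM at day 56, against 339, 819.9 and 505 CPM at day 28. Of these 8, 5 were higher in every day 56 library by CPM, also against 17.8% of all genes. The part of these markers in the result was not tested.

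**Figure D5:**
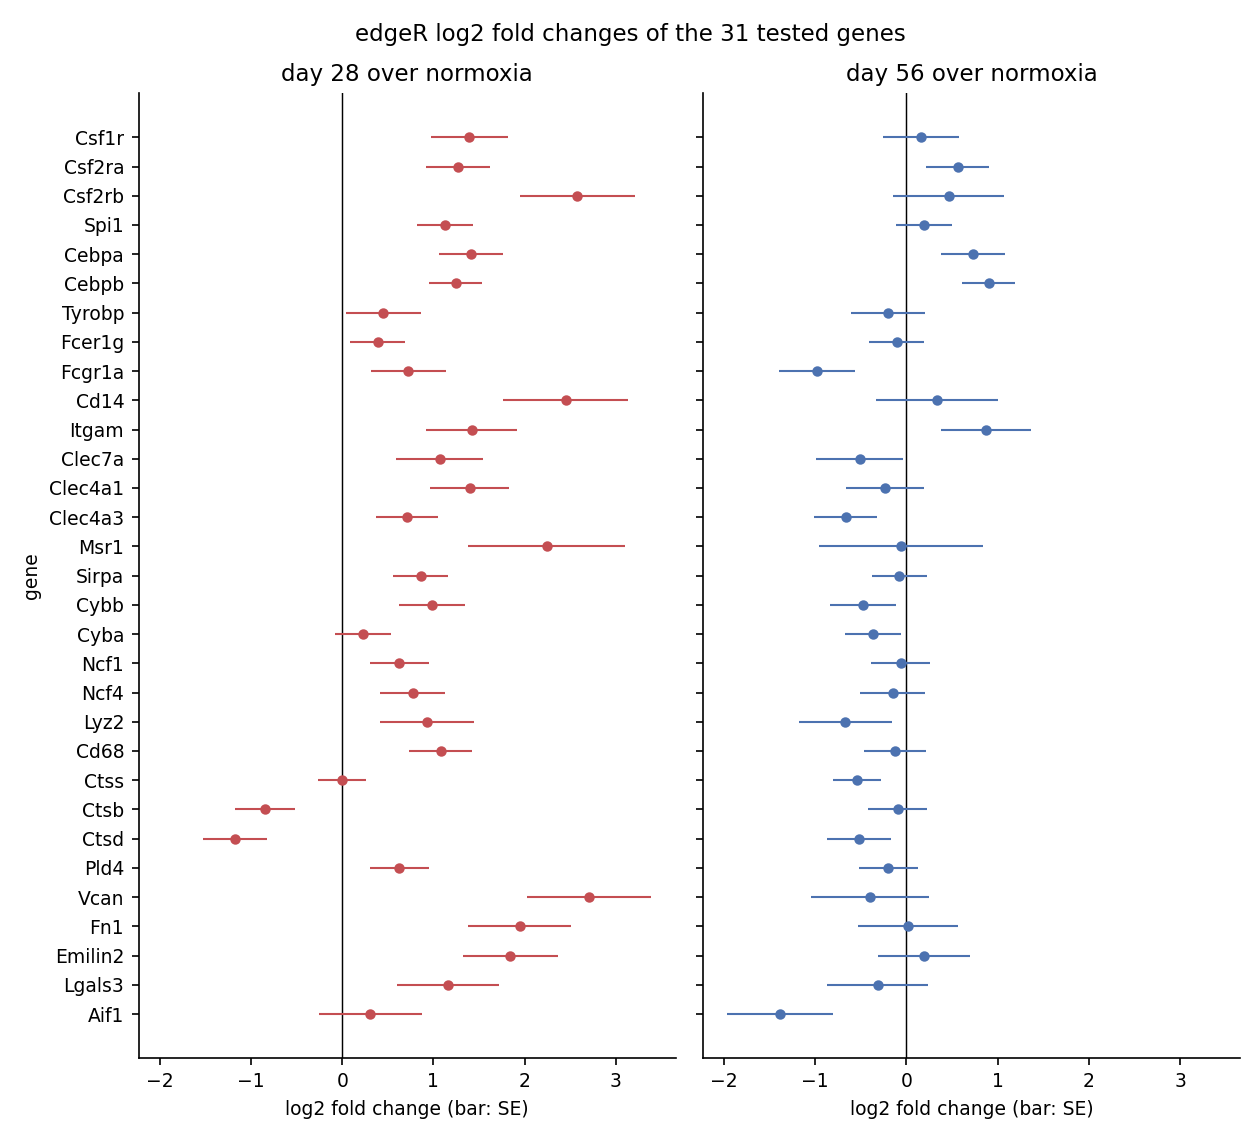
edgeR log2 fold changes with their SE for the 31 tested genes, for day 28 against normoxia and for day 56 against normoxia. Day 28 values run from -1.18 to 2.71, and none of the points in either panel passed an adjusted p of 0.05.

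Other genes of the same pathways were counted from lists drawn up by function, with earlier results of these data known. Of 10 other monocyte transcription factors, all tested, 10 had a higher mean at day 28 than in normoxia with a median log2 fold change of 1.01, and none passed. At day 56, when 3.42% of all genes were called higher and 3.70% lower, 1 of the 10 passed: Nr4a1, a nuclear receptor needed by nonclassical monocytes, rose, averaging 251 ± 48.7 CPM at day 56 and 66.4 ± 22.5 CPM in normoxia (SD, n = 3 each). Its log2 fold change was 1.92 (edgeR adjusted p = 0.0407). Of 10 kinases and effectors of ITAM signalling, 9 were higher and 1 lower at day 28, none past the threshold. At day 56, Btk, a kinase of B cells and myeloid cells, fell, averaging 21.0 ± 2.27 CPM at day 56 and 44.9 ± 8.07 CPM in normoxia, with a log2 fold change of -1.10 (edgeR adjusted p = 0.0257). B cell markers also differed between these groups, at 819.6, 828 and 503 CPM in the day 56 libraries, against 993, 1697 and 1157 CPM in normoxia, and their part in the Btk value was not tested.

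Of 6 other NADPH oxidase subunits and regulators, 5 had a line, and all 5 were lower at day 28 than in normoxia, with a median log2 fold change of -0.35 and none past the threshold. Several of these genes, such as Rac1 and Rap1a, are made by most cell types. Of 14 other lysosomal genes none passed in any comparison by edgeR, with median log2 fold changes of 0.46 at day 28 against normoxia, -0.05 at day 56 against normoxia and -0.52 between the days. Among genes of classical monocytes, 6 of 8 were tested and none passed at day 28. Among genes of nonclassical monocytes, 8 of 14 were tested, and Nr4a1 was the one that passed, at day 56. The calls of Nr4a1 and Btk held without normoxia replicate 1, day 28 replicate 2 or day 28 replicate 3. Leaving out normoxia replicate 2 or 3, or any 1 day 56 library, ended both of them, as did the intron share as a covariate. Leaving out day 28 replicate 1 also ended that of Nr4a1. Over the single left-out libraries the edgeR adjusted p lay between 0.0124 and 0.147 for Nr4a1 and between 0.00250 and 0.117 for Btk, with the same direction in every fit.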

How the data were processed

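RNA-seq of 9 PBMC libraries was analysed from 1 table that the authors deposited. Its values for each Ensembl gene, per the file headers, are raw counts of exon reads and RPKM (exon reads per exon length and mapped reads). The deposited exon counts of replicate 1 of each group are formally expected counts, because 1 broken line holds a fraction; they are whole on every intact line, so no rounding was needed. Per the submitters' processing notes, FastQC was used and the build was rn6; the aligner is not given in the sources used here. Of 22085 lines, 8 were broken and left out (4 genes). The table's 90 further columns of per-sample values were not used.

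Groups were taken from the sample titles. Genes were tested with edgeR 4.0.16 in R 4.3.3 (robust glmQLFit and glmQLFTest, TMM factors, default filterByExpr, 1 mean per group over all 9 libraries), with Benjamini-Hochberg adjustment over 12447 genes and a threshold of 0.05. SE values were derived from the F statistic. The procedure was tested on simulated data that held no globin difference and no outlying library, so that test does not cover these features. RPKM served for levels between genes and for a second count of genes without overlap. DESeq2 1.42.0, other filters and scalings, covariates and left-out libraries were alternatives. No pair of replicates agreed within sampling noise. Limits from counts hold for counting error alone, because reads that carry no molecular identifier can be copies of 1 molecule.

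The members and lists were chosen with earlier results of these data known. Per-library values are given for the 4 genes with the largest absolute log2 fold change in each comparison and for the gene with the highest RPKM in each role group; genes beyond that rule were chosen after their values were seen. Promoters came from RefSeq (GRCr8). A gene of the related lists is not reported here.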

Additional observations from a re-analysis of the deposited data

How the results depend on the processing

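Of the 22 alternatives for each comparison, these moved the number of the 31 genes called, which was 0 in each comparison with edgeR and all libraries. DESeq2 called 15 at day 28 against normoxia, 1 at day 56 against normoxia and 15 at day 56 against day 28. Fitting only the 2 groups compared called 1 gene, Emilin2, lower at day 56 than at day 28 (3.23%), while 4.80% of all genes were called in that fit. Leaving out normoxia replicate 1 and day 28 replicate 3 together called 19, 7 and 15 (61.3%, 22.6% and 48.4%), against 46.4%, 45.8% and 10.6% of all genes. Leaving out 1 library at a time gave 0 to 15 calls at day 28, 0 to 4 at day 56 and 0 to 3 between the days, the highest numbers without normoxia replicate 1. Without that library 48.4%, 12.9% and 9.68% of the 31 were called, against 45.2%, 43.0% and 7.89% of all genes. Median log2 fold changes ranged over the left-out libraries from 0.47 to 1.30 at day 28, -0.35 to 0.02 at day 56 and -1.43 to -0.71 between the days, with 0.47 and -0.71 both reached without day 28 replicate 2. With the globin share as a covariate the medians at day 28 and between the days were 0.59 and -0.71; the cause was not tested. Same-numbered deviations correlated between -0.173 and 0.223, and different-numbered ones between -0.292 and 0.298. With 3 libraries per group, these values cannot decide whether the replicate numbers pair the libraries. With the replicate block 0 of the 31 were called and the medians were 0.88, -0.19 and -1.19. Over all genes the block called 223, 540 and 186. Under it Nr4a1 at day 56 had an edgeR adjusted p of 0.0605, and Btk was still called. No gene past the threshold in an alternative had the opposite sign to its main value; below the threshold, the sign turned in 18, 40 and 5 of 682 gene and alternative pairs. Among all genes, the calls were 16, 886 and 68, and between 1 and 5875, 85 and 5790, and 0 and 1336 over the alternatives. At day 28 the split of calls over all genes moved with the scaling, at 11 higher and 5 lower with TMM, 8 and 0 with the DESeq2-type size factors, and 31 and 48 with upper quartile scaling. Low counts limit what can be said of Cd163, Ms4a7 and Msr1. Counts of genes without overlap by RPKM in place of CPM, an alternative chosen after seeing the data, are given beside the CPM counts; at day 56 against normoxia they were 2 higher and 2 lower on both scales.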
